A study of Mus musculus with 24 samples.

Results

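The 10 imprinted genes of 6 chromosomal loci were followed through G9a knockout and differentiation: Peg3, Usp29 and Zim1 of the Peg3 domain, Peg10 and Sgce of the Peg10 domain, Snrpn and Ndn of the Snrpn domain, Mest of a domain of its own, and the single genes Impact and Zrsr1. They were chosen by name, and all 10 have a row among the 24016 genes of the deposited table. Imprinted genes are expressed mainly from the allele of 1 parent. The choice is kept by DNA methylation laid down in the germline at control regions, and the zinc finger protein ZFP57 with TRIM28 guards that methylation in embryonic stem cells. G9a, the enzyme encoded by Ehmt2, places methyl groups on histone H3 lysine 9 and has been linked to imprinting in mouse placenta and stem cells.

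The cells are female mouse embryonic stem cells of line 16.7 Tsix +/TST, a hybrid whose sequence reads can be assigned to a mus or a cas allele at known differences. KO is a G9a knockout made in this line and WT is the parental line, so both carry the Tsix allele TST; how many knockout clones were used is not given in the sources used here. Day 0 is the undifferentiated state, and day 10 follows LIF withdrawal with 4 days in suspension and 6 days on gelatin. The 4 groups, KO day 0, WT day 0, KO day 10 and WT day 10, have 3 RNA libraries each and 1 sample each of ChIP for H3K9ac, an acetyl mark of active promoters. Values are scaled reads, that is, reads per gene that the authors scaled to 1 total for every library. The length the table gives each member equals its genomic span, so the reads are taken to cover exons and introns. The labels do not say that the cultures were separate, so p-values measure only the spread between these libraries.

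Several libraries stand apart. The 3 deepest day 0 libraries (KO replicates 2 and 3, WT replicate 3) hold 21087157 to 30527844 reads, and the other 9, the shallow ones, hold 2081129 to 4220140. The ribosomal RNA gene Rn45s took 0.11 to 0.13% of reads in the deep libraries and 14.8 to 25.1% in the shallow ones. Depth below therefore cannot be told apart from this difference. KO day 0 replicates 2 and 3 resemble each other far more than any other pair (chi-square per gene 2.65, against 4.33 to 374 for the other pairs). KO day 0 replicate 1 and WT day 10 replicate 3 carry 7273 and 8097 scaled reads of olfactory and vomeronasal receptor genes, against 225 to 2681 elsewhere (genes of smell that these cells are not known to use); these 2 are called the libraries with background reads below. Fibroblast genes summed to 4944 in KO day 0 replicate 1 and 11477 in WT day 0 replicate 1, where 16 of 16 and 14 of 16 stood above both other libraries, against 1588 to 1814 in the other day 0 libraries. Ehmt2 had 375 to 557 scaled reads in KO day 0 and 987 to 1375 in WT day 0, and 500 to 758 in KO day 10 and 719 to 1359 in WT day 10. The lines did not overlap at day 0 and overlapped at day 10. The lowest WT day 10 value is that of WT day 10 replicate 3, which carries background reads, while replicates 1 and 2 had 1297 and 1359.

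Both alleles could be read at the Peg10 and Snrpn domains only, with Mest at a boundary. This was judged from the other genes within 5 Mb, leaving imprinted genes out. Around Peg10 and Sgce the median gene had 30.7% mus reads (22 genes), an uneven but biallelic level. Around Snrpn and Ndn it had 51.4% (30 genes). The Peg3 domain lies in a stretch with 99.2% mus reads (98 genes), Impact in one with 97.1% (33 genes) and Zrsr1 in one with 98.4% (35 genes). In these 3 stretches most genes were read almost wholly from the mus allele. Over 95% mus reads were found for 75 of 98, 21 of 33 and 31 of 35 genes. Exceptions included Vmn2r29 near Peg3 with 24.2% and Cct4 near Zrsr1 with 81.2%. So reads of Peg3, Usp29, Zim1, Impact and Zrsr1 cannot tell an imprint from the lack of a readable cas allele. Peg3 itself had 14 cas reads among 12610.

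The neighbours of Mest fell into 2 blocks. Within 5 Mb the median was 48.8% over 64 genes, but the quartiles were 37.8 and 99.3%, and 34 genes lay between 25 and 75% while 29 lay over 95%. On the side before Mest, Klhdc10 had 34.8% and Tmem209 33.7% mus reads. The nearest gene on that side, Cep41, had 99.7%, Mest had 99.6% (5280 of 5301 reads), and Copg2, Tsga13 and Podxl on the far side had 98.7, 100 and 99.8%. Lincpint, between them, had 48.3%. Mest therefore shares its share of mus reads with the genes next to it, and its reads cannot be used to judge its imprint either. With neighbours within 10 Mb the median became 92.9% and the locus no longer counted as holding both alleles.

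**Figure D1:**
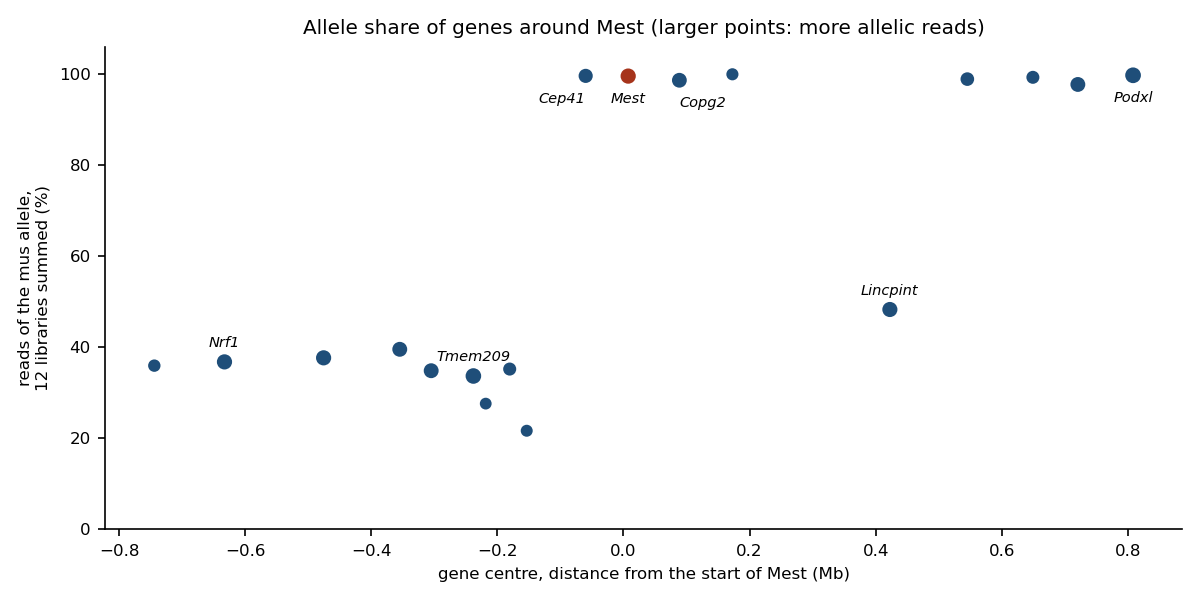
Percent of mus reads over all 12 libraries (vertical axis) of each gene against its distance from the start of Mest in Mb (horizontal axis), with larger points for more allelic reads and Mest in red. Genes from Cep41 on, apart from Lincpint at 48.3%, lie near 100%, while those before Cep41 lie between 21.6 and 39.5%.

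Promoters of 3 members are shown because the H3K9ac peaks or the motif counts below refer to them. All come from RefSeq on GRCm38.p6 and run from 250 bases before to 50 after the start. Promoter entries matched 7 of the 10 members; Peg10, Sgce and Impact are named only. Capitals mark TGCCGC or its reverse complement GCGGCA, the core bound by ZFP57 when methylated. Peg3 (chr7:6730370-6730669, minus strand) shares 263 of its 300 bases with the promoter of Usp29, which runs the other way. For Mest (chr6:30737800-30738099, plus strand) and Snrpn (chr7:60005150-60005449, minus strand) an inner start is shown, since the row of the gene table starts upstream of it.
Peg3: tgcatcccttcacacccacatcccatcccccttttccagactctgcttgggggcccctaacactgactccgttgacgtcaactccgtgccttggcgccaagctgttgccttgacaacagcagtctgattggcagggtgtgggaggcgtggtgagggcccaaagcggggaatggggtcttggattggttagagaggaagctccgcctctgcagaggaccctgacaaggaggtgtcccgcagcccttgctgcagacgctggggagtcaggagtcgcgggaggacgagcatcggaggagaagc
Mest: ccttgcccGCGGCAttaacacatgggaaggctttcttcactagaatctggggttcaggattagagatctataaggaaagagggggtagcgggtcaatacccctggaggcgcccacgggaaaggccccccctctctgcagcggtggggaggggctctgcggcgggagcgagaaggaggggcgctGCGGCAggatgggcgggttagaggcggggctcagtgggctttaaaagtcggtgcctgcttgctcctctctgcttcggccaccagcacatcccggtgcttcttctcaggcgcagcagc
Snrpn: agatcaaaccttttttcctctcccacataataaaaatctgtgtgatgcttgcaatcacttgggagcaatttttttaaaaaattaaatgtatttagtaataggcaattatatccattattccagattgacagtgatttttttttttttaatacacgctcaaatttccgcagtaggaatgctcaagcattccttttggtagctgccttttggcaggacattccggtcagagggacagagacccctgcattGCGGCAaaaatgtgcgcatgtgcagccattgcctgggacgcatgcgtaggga

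The inner promoter of Mest holds TGCCGC in either direction at 2 places and that of Snrpn at 1, as does the promoter of Zim1. The promoters of Peg3, Usp29, Ndn and Zrsr1 hold none. Nor do those at the first start of Mest and at the other listed starts of Snrpn. Searched on both strands, 11.7% of 32544 RefSeq promoters of this length hold the motif. ATGGCG, a core bound by YY1, was in none of the members' promoters, against 8.97% of all. The inner Mest promoter has 17 CpG, that of Peg3 13 and the inner one of Snrpn 7, against a median of 7.

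Peg3, Usp29, Peg10, Sgce and Mest were higher at day 10 than at day 0 in KO and in WT: 5 of 10 members passed higher and 0 lower in each line (limma, adjusted p under 0.05). Of 20624 genes 8.89% passed in KO, 2.43% higher and 6.46% lower, and 4.42% passed in WT, 2.02% higher and 2.4% lower. In KO 6 members were higher at day 10 without overlap between the days (8.93% of all genes), and in WT 7 were (6.63% of all genes). The members' median log2 change was 1.37 in KO, where that of all genes was -0.68, and 1.64 in WT, where that of all genes was -0.20. edgeR called 6 members in KO (7.16% of all genes) and 6 in WT (7.04%), and DESeq2 6 in KO (16.3%) and 6 in WT (9.18%). The sixth was Ndn in KO and Snrpn in WT with both tools.

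Peg3, a zinc finger protein gene of growth and maternal behaviour (NM_008817; chromosome 7, 6658671 to 6683130, mm9, minus strand), showed the largest change of the members. It had 11714, 16001 and 14271 scaled reads in KO day 10, against 641, 1959 and 1965 in KO day 0. In WT it had 13272, 17112 and 9051 at day 10, against 838, 714 and 1305 at day 0. The days did not overlap in either line. The log2 change was 3.36 in KO (SE 0.41, adjusted p = 5.6e-04) and 3.79 in WT (SE 0.41, adjusted p = 1.7e-04).

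Usp29 (NM_021323; chromosome 7, 6683294 to 6919930, plus strand), a deubiquitinase gene that starts 164 bases from Peg3 and runs away from it, was also higher at day 10. KO day 10 held 702, 622 and 944 scaled reads, against 405, 181 and 215 in KO day 0. WT day 10 held 723, 1363 and 1837, against 141, 83.5 and 181 in WT day 0. The days did not overlap in either line. The highest value of KO day 0 and the highest of WT day 10 are those of the libraries with background reads, and at 236636 bases Usp29 is the longest of the members. Its change was 1.56 in KO (SE 0.42, adjusted p = 0.0374) and 3.23 in WT (SE 0.42, adjusted p = 6.7e-04). Without those 2 libraries it was 1.91 in KO and 2.94 in WT (adjusted p = 0.0050 and 4.4e-04). The KO call ended without KO day 0 replicate 2 (adjusted p = 0.112) or 3 (0.101), or without KO day 10 replicate 1 (0.0920), 2 (0.0893) or 3 (0.138), and the KO change was 0.88 among the 9 shallow libraries (0.280), where KO day 0 is 1 library that is assumed to vary like the others.

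Zim1 (NM_011769; chromosome 7, 6628154 to 6649143, minus strand), a zinc finger gene of the same domain that is maternally expressed in mouse embryos, was scarce everywhere and passed nowhere. It had 35.7, 63.0 and 32.4 scaled reads in KO day 10 and 77.8, 64.8 and 71.3 in KO day 0. WT had 43.2, 74.1 and 63.2 at day 10 and 35.4, 12.5 and 60.3 at day 0. Zim1 was the sole member lower at day 10 without overlap in KO, a pattern that 36.5% of all genes shared, while the WT days overlapped. Its change was -0.75 in KO (SE 0.58, adjusted p = 0.365) and 0.94 in WT (SE 0.58, adjusted p = 0.466).

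Peg10, a retrotransposon-derived gene needed for the placenta (NM_001040611; chromosome 6, 4697306 to 4710516, plus strand), was the most abundant member per kb of genomic span. It had 50212, 53017 and 58988 scaled reads in KO day 10, against 4732, 11663 and 11464 in KO day 0. WT had 65918, 48137 and 41605 at day 10, against 4209, 9570 and 9869 at day 0. All day 10 values lie above all day 0 values. The change was 2.65 in KO (SE 0.39, adjusted p = 0.0022) and 2.79 in WT (SE 0.39, adjusted p = 0.0011).

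Sgce, the sarcoglycan epsilon gene of a muscle membrane complex (NM_001130188; chromosome 6, 4624350 to 4697204, minus strand), starts 102 bases from Peg10 in the other direction. It had 774, 915 and 1157 scaled reads in KO day 10, against 346, 284 and 296 in KO day 0. In WT it had 942, 1627 and 1633 at day 10, against 202, 280 and 235 at day 0. The groups of the 2 days did not overlap. The change was 1.60 in KO (SE 0.29, adjusted p = 0.0088) and 2.52 in WT (SE 0.29, adjusted p = 2.7e-04). The KO call ended without KO day 10 replicate 3 (1.45, adjusted p = 0.0628) and among the 9 shallow libraries (1.43, 0.107).

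Mest, a hydrolase-like gene active in mesoderm (NM_001252293; chromosome 6, 30683506 to 30698466, plus strand), had 6359, 9257 and 12656 scaled reads in KO day 10, against 925, 2131 and 2079 in KO day 0. In WT it had 3582, 7215 and 5547 at day 10, against 806, 864 and 1752 at day 0. Day 10 was above day 0 in every library of each line. The change was 2.50 in KO (SE 0.41, adjusted p = 0.0049) and 2.29 in WT (SE 0.41, adjusted p = 0.0058). Copg2, a coatomer subunit gene that overlaps Mest by 912 bases on the opposite strand, fell in KO, to 372 ± 37.2 at day 10 against 960 ± 215 at day 0 (SD, n = 3; log2 -1.34, adjusted p = 0.0307). In WT Copg2 was at 835 ± 278 at day 10 and 1005 ± 367 at day 0 and did not pass. The strand of the libraries is not stated, so reads of the overlap cannot be assigned to 1 of the genes.

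**Figure D2:**
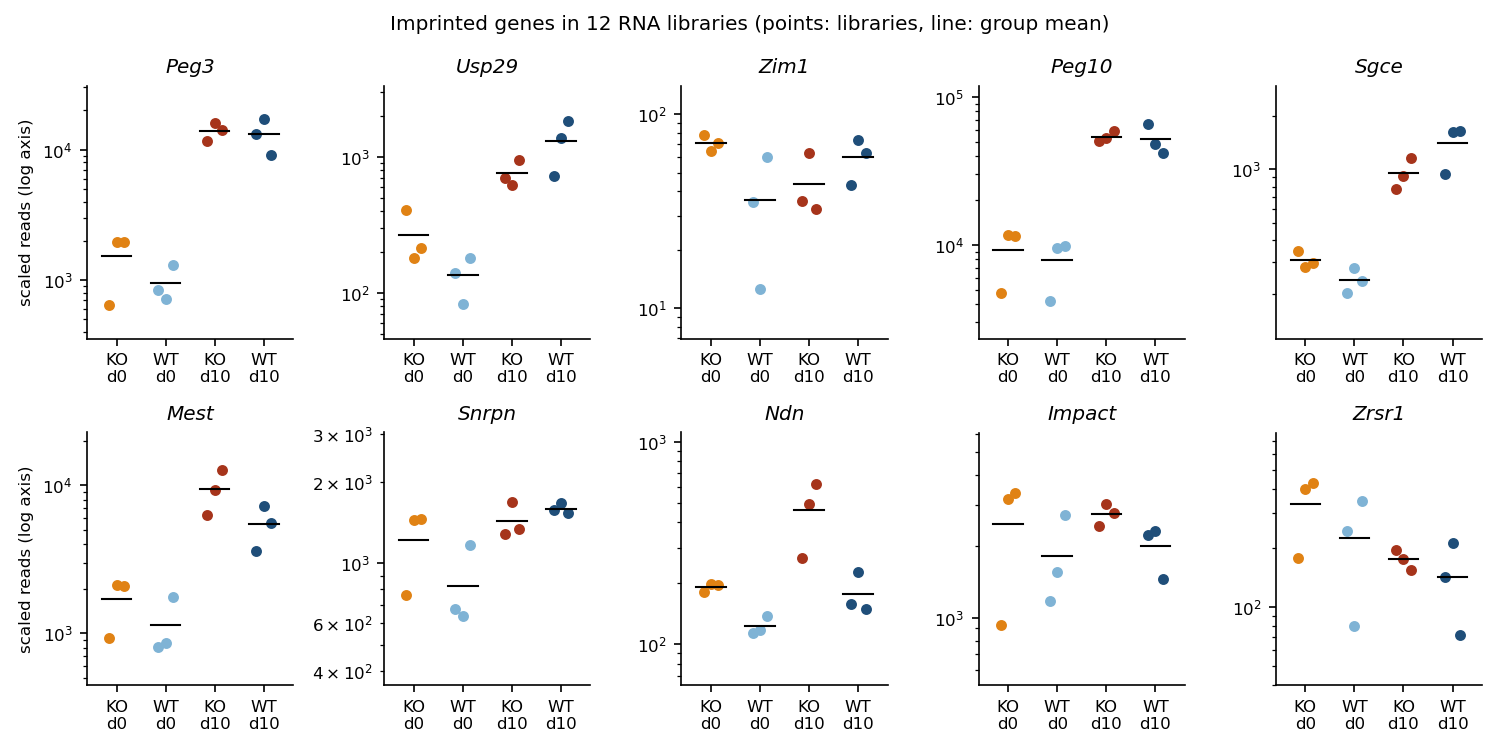
Scaled reads (log axis) of each member in the 12 RNA libraries by line and day, with points for libraries and a line for the group mean. Peg3, Usp29, Peg10, Sgce and Mest sit higher at day 10 in both lines without overlap, whereas Zrsr1 and Impact overlap between days.

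Snrpn and Ndn, of the domain linked in humans to Prader-Willi syndrome, did not pass in either line with limma, but their calls depended on the setting. Snrpn, a spliceosome protein gene (NM_001082962; chromosome 7, 67127388 to 67285105, minus strand), had 1285, 1687 and 1338 scaled reads in KO day 10 and 766, 1440 and 1455 in KO day 0. WT had 1566, 1662 and 1535 at day 10 and 679, 639 and 1162 at day 0. The KO days overlap and the WT days do not. The change was 0.28 in KO (SE 0.31, adjusted p = 0.533) and 0.99 in WT (SE 0.31, adjusted p = 0.0991). The WT change passed under 6 alternatives: edgeR (1.04, adjusted p = 0.0364), DESeq2 (1.17, 1.3e-04), median-of-ratios scaling (1.20, 0.0128), a depth term (1.17, 0.0015), the shallow libraries alone (1.27, 0.0155) and without the libraries with background reads (1.02, 0.0362). The KO change passed with a depth term alone (0.80, adjusted p = 0.0298). Snurf lies within Snrpn on the same strand, so the reads of these 2 genes are shared.

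Ndn, the necdin gene of neuron growth control (NM_010882; chromosome 7, 69493163 to 69494813, plus strand), had 266, 490 and 618 scaled reads in KO day 10 and 181, 198 and 197 in KO day 0. WT had 157, 226 and 149 at day 10 and 113, 117 and 138 at day 0. The days did not overlap in either line. The change was 1.17 in KO (SE 0.35, adjusted p = 0.0507) and 0.51 in WT (SE 0.35, adjusted p = 0.515). The KO change passed under 8 alternatives, with values of 1.12 to 1.56, among them edgeR (1.40, adjusted p = 0.0219), DESeq2 (1.56, 7.1e-05) and without the libraries with background reads (1.12, 0.0394).

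Impact, a translation regulator gene (NM_008378; chromosome 18, 13130761 to 13151457, plus strand), had 2440, 3036 and 2775 scaled reads in KO day 10 and 934, 3186 and 3369 in KO day 0. WT had 2229, 2316 and 1454 at day 10 and 1171, 1566 and 2728 at day 0. The days overlapped in each line, and the changes were 0.34 in KO (SE 0.45) and 0.20 in WT (SE 0.45). Zrsr1, an RNA-binding splicing factor gene (NM_011663; chromosome 11, 22872005 to 22876496, plus strand), had 194, 175 and 154 in KO day 10 and 177, 396 and 429 in KO day 0. It had 142, 212 and 71.9 in WT day 10 and 244, 79.3 and 346 in WT day 0. The days overlapped again, with changes of -0.84 in KO (SE 0.54) and -0.54 in WT (SE 0.54). Zrsr1 lies wholly within Commd1 on the opposite strand, so its 4491 bases can hold reads of both.

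**Figure D3:**
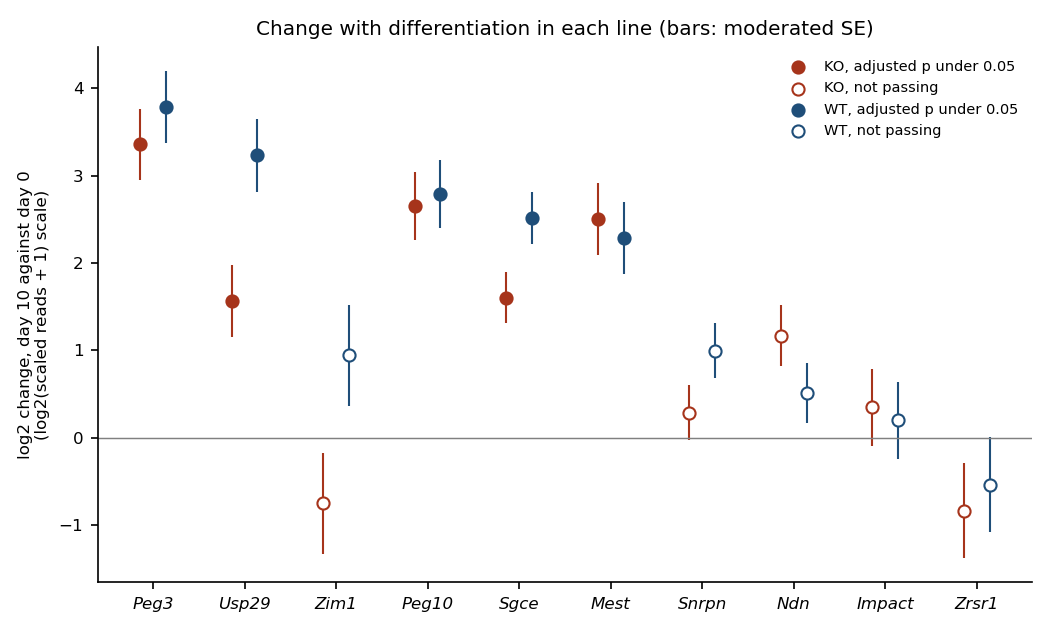
Log2 change at day 10 against day 0 on the log2(scaled reads + 1) scale for each member, KO in red and WT in blue, with moderated SE bars and filled points where the adjusted p is under 0.05. The 5 filled members run from 1.56 to 3.36 in KO and from 2.29 to 3.79 in WT.

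Markers of other cell types moved with these changes. Of all genes 2.43% passed higher and 6.46% lower in KO, and 2.02% and 2.4% in WT. Mesoderm genes summed to 1777 to 2624 scaled reads in KO day 10, against 169 to 237 in KO day 0, with 3 of 7 passing higher. In WT they summed to 886 to 3031 at day 10, against 99.0 to 196 at day 0, with 3 of 7 passing higher. Fibroblast genes summed to 3820 to 11013 in KO day 10 and 1794 to 4944 in KO day 0 (1 of 16 higher, 1 lower), and to 2390 to 8197 in WT day 10 and 1588 to 11477 in WT day 0 (0 higher, 1 lower). Trophoblast genes summed to 730 to 860 in KO day 10, against 211 to 251 in KO day 0, and to 367 to 690 in WT day 10, against 70.7 to 184 in WT day 0, with 2 of 5 passing higher in each line. Endoderm genes summed to 460 to 796 in KO day 10 and 134 to 352 in KO day 0 (1 of 7 higher), and to 176 to 840 in WT day 10 and 120 to 242 in WT day 0 (0 higher). So the sums of mesoderm and trophoblast genes did not overlap between the days in either line, while those of fibroblast genes did. Neural genes passed higher for 0 and lower for 1 of 9 in each line, and pluripotency genes lower for 4 of 9 in KO and 8 of 9 in WT. The pluripotency list has 10 genes, but Zfp42 is counted below, with the genes that keep or erase imprints. The part of these markers in the members' changes was not tested. In these bulk libraries more cells of a type and more RNA per cell cannot be told apart.

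Levels were compared between members only per kb of genomic span, which counts introns and so understates genes with long introns. Peg10 was highest, with 4093 scaled reads per kb in KO day 10 and 3928 in WT day 10. Mest had 630 and 364 and Peg3 572 and 537 in the same groups. Usp29 was among the lowest, with 3.19 in KO day 10 and 5.53 in WT day 10.

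No member passed between KO and WT at day 0. limma called 0 of 10 members and 0.0% of all genes; 1 member, Usp29, had an unadjusted p under 0.05, against 3.82% of all genes, and edgeR and DESeq2 called 0 members. The log2 differences of all 10 lay above 0; their median was 0.57, and that of all genes 0.17. Ndn, Sgce, Usp29 and Zim1 were higher in KO without overlap between the groups (4 of 10, against 5.5% of all genes). The largest differences were 1.21 for Zim1 (SE 0.58) and 0.96 for Usp29 (SE 0.42), followed by 0.72 for Zrsr1 (SE 0.54) and 0.65 for Ndn (SE 0.35), each with an adjusted p of 0.993. Peg3 differed by 0.55, Mest by 0.58, Snrpn by 0.56, Sgce by 0.38, Impact by 0.33 and Peg10 by 0.22 on the log2 scale.

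Depth moved with these day 0 values. The 3 deep libraries, 2 of them KO, stood above all 3 shallow ones for 6 of 10 members (Peg3, Peg10, Mest, Snrpn, Impact and Zrsr1), as for 25.4% of all genes. Among deep libraries (2 KO, 1 WT) the KO minus WT difference was 0.59 for Peg3, 0.23 for Peg10 and 0.26 for Impact, and among shallow ones (1 KO, 2 WT) it was -0.27, -0.42 and -0.54 for the same genes. For Usp29 it was 0.13 among deep and 1.89 among shallow libraries, and for Zim1 0.17 and 1.83. Ndn differed by 0.52 among deep and 0.65 among shallow libraries, Sgce by 0.31 and 0.54, Mest by 0.26 and 0.15, Snrpn by 0.32 and 0.22, and Zrsr1 by 0.25 and 0.35. With 1 library in an arm these values have no test. The 1 shallow KO library is KO day 0 replicate 1, so depth cannot be told apart there from its background reads and fibroblast genes. Without the libraries with background reads the difference was 0.61 for Usp29 and 1.15 for Zim1 (limma, adjusted p = 0.525 and 0.466).

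At day 10 limma again called 0 of 10 members and 0.0% of all genes, with 1 member at an unadjusted p under 0.05, against 11.9% of all genes. That member was Ndn, with 458 ± 178 scaled reads in KO and 178 ± 42.3 in WT (SD, n = 3), a log2 difference of 1.30 (SE 0.35, adjusted p = 0.210). The groups of Ndn did not overlap. DESeq2 called Ndn higher (1.44, adjusted p = 0.0090; 2.64% of all genes called), and edgeR called 0 members. Ndn and Impact were higher in KO without overlap (2 of 10, against 5.54% of all genes). The other differences were 0.79 for Mest, 0.48 for Impact, 0.42 for Zrsr1, 0.13 for Peg3, 0.08 for Peg10, -0.15 for Snrpn, -0.48 for Zim1, -0.54 for Sgce and -0.71 for Usp29. The median of all 10 members was 0.11, and that of all genes -0.26.

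No member passed in the test of whether the 10-day change differed between the lines. limma called 0 of 10 (0.0% of all genes), with 2 at an unadjusted p under 0.05, against 8.7% of all genes, and edgeR and DESeq2 called 0. Those 2 were Usp29 (KO minus WT -1.67, SE 0.59, adjusted p = 0.547) and Sgce (-0.91, SE 0.42, adjusted p = 0.569). Without the libraries with background reads the difference of Usp29 was -1.03.

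Genes around the members came from lists chosen with earlier results known. For day 10 against day 0, 2.43% of all genes passed higher and 6.46% lower in KO, and 2.02% and 2.4% in WT. In the Peg10 domain list 0 of 11 genes passed higher and 1 lower in KO, and 0 passed in WT. The gene lower in KO was Pon3, a paraoxonase gene, with a change of -3.68 (adjusted p = 0.0370). It had 19.8, 0 and 10.8 scaled reads in KO day 10, against 153, 52.8 and 61.4 in KO day 0. The size of its change thus depends on values near 0. In the Snrpn domain list 1 of 18 passed higher in KO and 2 in WT. Magel2, a necdin relative, was the one shared: it had 171 ± 47.1 scaled reads in KO day 10, against 18.4 ± 6.02 in KO day 0, and 157 ± 72.2 in WT day 10, against 14.4 ± 2.24 in WT day 0 (SD, n = 3; changes 3.15 and 3.24). Atp10a, a lipid flippase gene, rose in WT by 1.55 (adjusted p = 0.0241). The Peg3, Impact and Zrsr1 lists held 3, 3 and 2 measured genes, and 0 passed in either line (limma). Of 35 other imprinted genes 7 passed higher and 3 lower in KO, and 6 higher and 0 lower in WT.

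Among 23 genes that keep or erase imprints, 1 passed higher and 4 lower with differentiation in KO, and 0 higher and 4 lower in WT. The shares of all genes were 2.43% higher and 6.46% lower in KO, and 2.02% and 2.4% in WT. Zfp57 fell to 770 ± 161 scaled reads in KO day 10, against 2776 ± 884 in KO day 0 (log2 -1.81, adjusted p = 0.0225). In WT it fell to 372 ± 159 at day 10, against 2774 ± 1547 at day 0 (-2.85, adjusted p = 0.0013; SD, n = 3). Zfp42, a zinc finger gene related to YY1 that is also on the pluripotency list, changed by -1.74 in KO and -3.05 in WT. The 5-methylcytosine oxidase genes Tet1 and Tet2 changed by -1.62 and -2.12 in KO and by -2.24 and -2.32 in WT, and all passed.

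At the loci with both alleles, members were read from both. Peg10 had 27.3, 29.4 and 31.7% mus reads in KO day 10 and 18.9, 26.2 and 26.2% in KO day 0. WT had 27.8, 29.8 and 29.1% at day 10 and 21.8, 22.5 and 25.9% at day 0. The Wilson 95% intervals of these 12 shares, which cover counting error only, lay between 14.4 and 33.1%, from 165 to 9981 reads per library. Peg10 was thus read from both alleles in every library; the median of its neighbours ran from 18.2 to 36.5% across libraries.

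Every day 10 share of Peg10 was above every day 0 share. The means were 29.5 ± 2.20% in KO day 10 and 23.8 ± 4.21% in KO day 0, and 28.9 ± 1.01% in WT day 10 and 23.4 ± 2.20% in WT day 0 (SD, n = 3). The exact permutation p was 0.1 in each line, 2-sided, the smallest that 3 against 3 libraries allow (adjusted 0.425 over 17 comparisons). In edgeR over genes with 10 to 90% mus reads the change did not pass (adjusted p = 0.227 in KO and 0.312 in WT). Nor did it pass with genes of 1 allele kept (0.576 and 0.826), but that fit failed its check on simulated data, so its result decides nothing. With a term for the replicate number the change passed in KO (0.0210), as 173 of 2991 genes did, and not in WT (0.493). However, no label says that a number marks a shared batch. At day 0 the deep libraries had 25.9 to 26.2% and the shallow ones 18.9 to 22.5%, so the share moved with depth. The median of the neighbours was 23.4 ± 5.20% in KO day 10 and 30.3 ± 0.67% in KO day 0, and 31.9 ± 4.61% in WT day 10 and 29.1 ± 3.51% in WT day 0.

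Sgce had fewer allelic reads, 20 to 256 per library. Its mus share was 41.8, 17.1 and 47.0% in KO day 10 and 36.4, 19.7 and 27.7% in KO day 0. In WT it was 41.2, 38.7 and 34.9% at day 10 and 26.7, 15 and 24.2% at day 0. The KO days overlap and the WT days do not, with means of 38.3 ± 3.17% in WT day 10 and 21.96 ± 6.15% in WT day 0 (SD, n = 3; exact permutation p = 0.1, edgeR adjusted p = 0.218).

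Snrpn was read about equally from both alleles in the 2 deep KO libraries of day 0 and leaned to mus elsewhere. It had 63.1, 70.6 and 66.7% mus reads in KO day 10 and 62.1, 50.5 and 51.1% in KO day 0. WT had 65.9, 73.0 and 61.4% at day 10 and 62.8, 61.1 and 57.2% at day 0. Each KO day 10 library lay above each KO day 0 library, while the WT days overlapped. KO day 10 averaged 66.8 ± 3.79% and KO day 0 54.6 ± 6.53% (SD, n = 3; exact permutation p = 0.1, 2-sided, adjusted 0.425). In edgeR the log2 odds ratio was 0.85 with an adjusted p of 0.0875. It was 1.00 with an adjusted p of 0.0033, and so passed, as 334 of 3112 genes did, without KO day 0 replicate 1. That leaves in this arm only the pair of libraries most alike, both deep. At day 0 the deep libraries had 50.5 to 57.2% and the shallow ones 61.1 to 62.8%, so this share too moved with depth. All day 10 libraries are shallow, so without KO day 0 replicate 1 day and depth cannot be told apart in KO. The neighbours had medians of 44.4 to 60.9% in KO day 10 and 49.7 to 51.8% in KO day 0.

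Between KO and WT no allele share of a member passed the test. At day 0 edgeR called 0 of 3 members tested (0.0% of 3320 genes) and at day 10 0 of 3 (0.104% of 2873 genes). No member had an unadjusted p under 0.05 at either day, against 48 of 3320 genes at day 0 and 194 of 2873 at day 10. For differentiation edgeR called 0 of 3 in KO (4.98% of 2991 genes) and 0 of 3 in WT (2.17% of 2995 genes). In each line 2 members had an unadjusted p under 0.05, as had 471 of 2991 genes in KO and 344 of 2995 in WT. Means of Peg10 were 23.8% in KO and 23.4% in WT at day 0, and 29.5% in KO and 28.9% in WT at day 10. Snrpn averaged 54.6% in KO and 60.4% in WT at day 0, a difference of 5.75 points in size (exact permutation p = 0.3). Ndn had at least 10 allelic reads in 6 libraries only, with 20 of 40 and 15 of 34 mus reads in the deep KO day 0 libraries and 10 of 15 in the deep WT day 0 library.

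**Figure D4:**
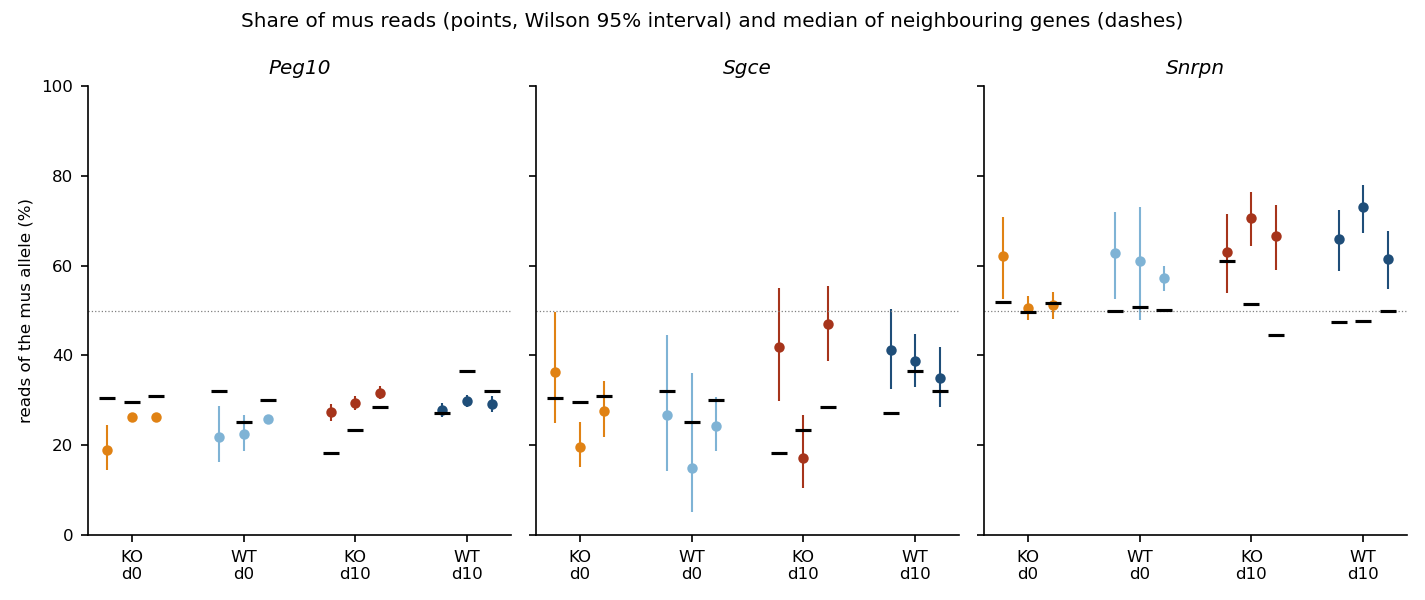
Percent of mus reads of Peg10, Sgce and Snrpn in each library with Wilson 95% intervals, grouped by line and day, and the median of neighbouring genes in the same library as a dash. Peg10 lies between 18.9 and 31.7%, and Snrpn between 50.5 and 73.0%.

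Other genes of the same domains were also read from both alleles. Summed over the 12 libraries, Snurf had 56.9% mus reads, Ube3a, the ubiquitin ligase gene of Angelman syndrome, 50.3%, Peg12 34.2% and Magel2 57.6%, from 19 of 33 reads. In the Peg10 domain Ppp1r9a had 38.1%, Casd1 28.7% and Asb4 30.1%. Over the listed genes with a share, the range was 34.2 to 66.0% in the Snrpn domain (17 genes) and 21.7 to 39.5% in the Peg10 domain (9 genes).

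H3K9ac peaks, as the authors' peak caller listed them, lay within 1 kb of the start of 4 members in KO day 0 (40.0% of all genes), 6 in WT day 0 (49.7%), 6 in KO day 10 (52.1%) and 6 in WT day 10 (50.8%). With 1 sample a group there is no replicate check, and fold values are the authors' enrichment of each peak. Most listed peaks are weak. A -log10 q of at least 2 was reached by 2930 of 37704 peaks in KO day 0 and 1813 of 63050 in WT day 0. At day 10 it was reached by 6406 of 51501 in KO and 6685 of 37310 in WT. Impact had a peak in every sample, with a fold of 5.48 in KO day 0, 4.93 in WT day 0, 5.42 in KO day 10 and 5.65 in WT day 10. Zrsr1 did too, at 4.09, 3.06, 3.75 and 5.00 in the same order, though its -log10 q in WT day 0 was 0.84. A peak covered the starts of Peg3 and Usp29 with a fold of 2.69 in WT day 0, 5.45 in KO day 10 and 3.86 in WT day 10. That of WT day 0 was weak (-log10 q 0.39). In KO day 0 the peak counted for Peg3 (fold 4.24) covered neither start: it lay within Peg3 and ended 897 bases short of its start, so it is not counted with a window of 500 bases. A peak covered the starts of Peg10 and Sgce with a fold of 4.56 in KO day 10 and 4.25 in WT day 10. In WT day 0 the peak counted for both (fold 3.42, -log10 q 1.35) covered neither start. It lay within Sgce and ended at 4697146, where Sgce starts at 4697204 and Peg10 at 4697306. In KO day 0 none was listed for these 2 genes. Ndn had a weak peak in KO day 0 alone (fold 2.39, -log10 q 0.04), and Zim1 had none.

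Mest and Snrpn had no peak at the start of their rows in the table but had one at an inner start in some samples. That place was set by the distance between the 2 starts in RefSeq on GRCm38, 4544 bases for Mest and 135026 for Snrpn, counted from the row's mm9 start. The fold at Mest was 2.79 in KO day 0, 3.84 in KO day 10 and 2.68 in WT day 10. At Snrpn it was 3.02 in KO day 10 and 3.80 in WT day 10. In the same order the -log10 q was 0.46, 2.59 and 0.59 at Mest and 1.03 and 2.25 at Snrpn, so several of these peaks are weak. With a -log10 q of at least 5 a peak near the row's start remained for 1 member in KO day 0 (1.6% of all genes), 0 in WT day 0 (0.275%), 3 in KO day 10 (10.6%) and 1 in WT day 10 (9.64%).

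**Figure D5:**
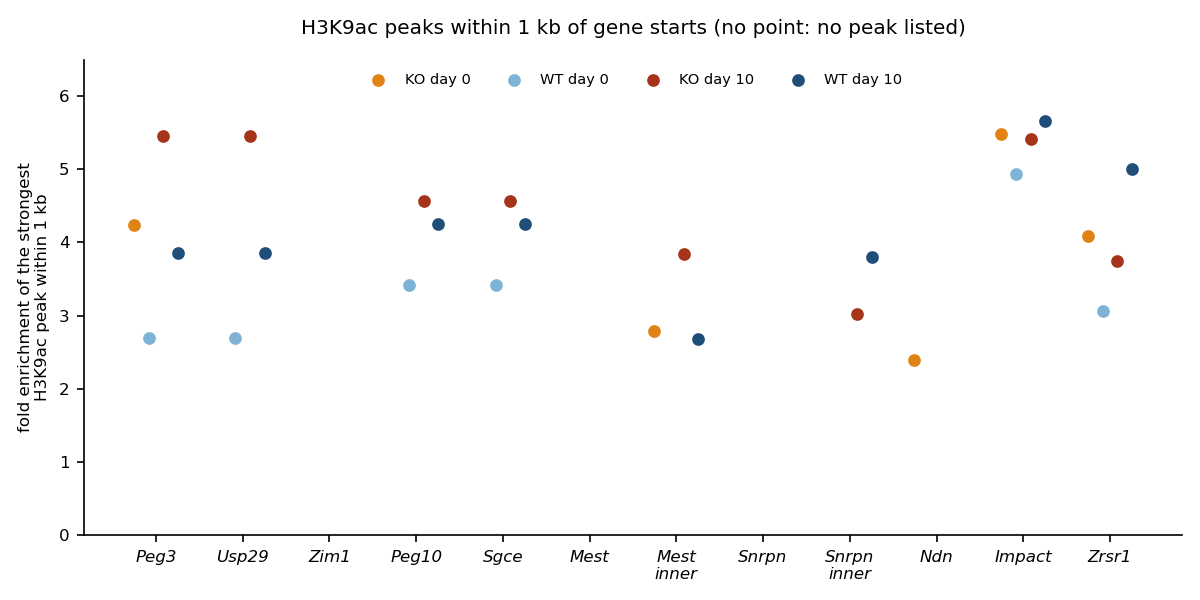
Fold enrichment (vertical axis) of the strongest H3K9ac peak within 1 kb of each start, with inner starts of Mest and Snrpn beside those of their rows. Impact lies between 4.93 and 5.65 in all 4 samples, and no point means that no peak was listed.

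Over the 12 libraries and 10464 genes with a mean above 100 scaled reads, the profile closest to Peg3 was that of Nnat, an imprinted neural gene (root mean square difference 0.40 on the log2 scale), then Sox11 (0.41) and Tpm1 (0.46). Nnat was also closest to Peg10 (0.31), before Podxl (0.35) and Dusp4 (0.36). Among the genes closest to Mest were Sox11 (0.49) and Dusp4 (0.50). Snrpn was closest to Ctnnd1 (0.13), then Snurf (0.20), which shares its reads, and Trim44 (0.20).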

How the data were processed

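RNA was made with RNeasy and Ribo-Zero per the labels' protocols. The submitters' processing notes name TopHat, HOMER, Novoalign, MACS2 and mm9, with no versions; strand, multi-mapping, allele assignment and the MACS2 control are not given in the sources used here. The gene table as deposited by the authors holds a signal, reads per gene scaled to 1 total per library, and whole reads were recovered for 100% of values (within 0.006). The allele tables as deposited hold read counts of mus and cas alleles. The deposited peak lists hold the fold enrichment, the -log10 p and q and a score for each peak, per the file headers. The deposited gene table also holds the authors' log2 ratios and p-values between groups, which were not used.

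Genes above 1 scaled read in at least 3 libraries (20624) were tested with limma 3.58.1 (trend, robust) on log2(value + 1) over all 12 libraries, with Benjamini-Hochberg adjustment over all genes; folds of low genes are understated on this scale. edgeR 4.0.16 and DESeq2 1.42.0 on recovered reads were alternatives. Allele counts were tested with edgeR's quasi-likelihood test, with library and group-by-allele terms. The genes of this test were restricted to those with 10 to 90% mus reads after the wider fit failed its check on simulated data. The restriction was made after the wider fit's results for the members had been seen, and Mest drops out. No member was called either way, but the lack of calls in the wider fit decides nothing, given its failed check. Exact permutation tests compared shares of libraries with at least 10 allelic reads. All 10 members are named; of the other lists, up to 4 called genes with the largest change. Members, lists and tests were chosen with earlier results of these data known. The tests were checked on simulated data. Values of some genes are not reported here. H3K9me2 and input samples were not used here; the labels of 2 inputs name different days. Alternatives were other pseudocounts, filters, scalings, tools and windows, depth and replicate terms, and libraries left out.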

Additional observations from a re-analysis of the deposited data

How the results depend on the processing

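The 5 differentiation calls in WT held under each of the alternatives run, and so did those of Peg3, Peg10 and Mest in KO. The count of members called in KO was 8 with a depth term, 3 among the shallow libraries and 3 to 5 with 1 library left out, the lowest without KO day 10 replicate 3. DESeq2 called 1 member between KO and WT at day 10. Counts over all genes ran from 0 to 15 between KO and WT at day 0, 0 to 538 at day 10, 130 to 5409 for differentiation in KO, 372 to 2169 in WT and 0 to 79 for the difference of changes. Requiring a -log10 q of 5 left a promoter peak at 1 member in KO day 0, 0 in WT day 0, 3 in KO day 10 and 1 in WT day 10, where 1.6, 0.275, 10.6 and 9.64% of all genes had one.

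Directions turned for members that did not pass; the cause was not tested. With a depth term the KO minus WT difference at day 0 was -0.10 for Impact and -0.056 for Peg10, and among the shallow libraries -0.54 for Impact, -0.42 for Peg10 and -0.27 for Peg3. At day 10 it was -0.062 for Peg10 and -0.12 for Peg3 without the libraries with background reads. The KO change of Impact was -0.26 and that of Snrpn -0.021 without those libraries and also without the day 0 libraries with fibroblast genes, where the WT change of Impact was -0.078. The difference of changes was -0.67 for Impact and -0.14 for Mest without the libraries with background reads, and -0.18 for Impact without those with fibroblast genes. It was 0.20 for Peg10, 0.031 for Peg3 and 0.21 for Zrsr1 with a depth term, and 0.51, 0.40 and 0.074 for the same genes among the shallow libraries.

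With 1 library left out in turn, the KO minus WT difference of Peg10 ran from -0.18 to 0.65 at day 0 and -0.062 to 0.27 at day 10, and that of Peg3 from -0.12 to 0.34 at day 10. The day 10 change of Impact ran from -0.26 to 0.67 in KO and -0.078 to 0.53 in WT, and that of Snrpn from -0.021 to 0.44 in KO. The difference of changes ran from -0.45 to 0.47 for Impact, -0.18 to 0.47 for Mest, -0.57 to 0.26 for Peg10 and -0.73 to 0.32 for Zrsr1. The log2 odds ratio of the mus allele between KO and WT ran from -0.057 to 0.19 for Peg10 at day 0, and at day 10 from -0.035 to 0.12 for Peg10, -0.68 to 0.41 for Sgce and -0.17 to 0.22 for Snrpn. Allele calls ran from 0 to 1, with 1 (Snrpn in KO, where 334 of 3112 genes were called) without KO day 0 replicate 1. Leaving out the day 0 libraries with fibroblast genes gave the same fit in KO, since it drops that library alone there.

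The replicate numbers of the labels share only a number: 3, 2, 0 and 3 of 6 samples were closest to their own number in KO against WT at day 0, KO against WT at day 10, differentiation in WT and differentiation in KO. With the replicate block 5 members were called in each line for differentiation and 0 between KO and WT. In the allele test the replicate block called 1 member change, Peg10 in KO (log2 odds ratio 0.40, adjusted p = 0.0210), where 173 of 2991 genes were called. It gave -0.0031 for Snrpn between KO and WT at day 10. Depth limits members whose shallow libraries hold few reads, such as Zim1, and allele shares from few reads, such as those of Sgce, Ndn and Zrsr1.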

Other observations

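Of 35 other imprinted genes 7 passed higher and 3 lower at day 10 in KO, where 2.43 and 6.46% of all genes did, and 6 passed higher and 0 lower in WT, where 2.02 and 2.4% did (limma). H19, a noncoding RNA gene, had log2 changes of 6.73 in KO and 6.87 in WT, and Igf2, the growth factor gene beside it, 5.08 and 4.62. Airn, a long noncoding RNA gene, changed by 3.76 in KO and 5.12 in WT. Gpr1, a receptor gene, changed by -4.11 in KO. It had 0, 0 and 5.39 scaled reads in KO day 10, against 59.2, 19.5 and 25.6 in KO day 0. The size of its change therefore depends on the pseudocount. Between KO and WT 0 of the 35 passed at either day.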
